A study of Mus musculus with 16 samples.

Results

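The killer cell lectin-like receptor genes of the mouse were described in immune cells sorted from MC38 and Panc02-SIY tumors, with and without radiation. Members were all features whose symbol begins with Klra, Klrb, Klrc, Klrd, Klre, Klrg, Klri or Klrk followed by a digit, which gave 26 of 31053 features. They comprised 11 Klra, 5 Klrb and 3 Klrc genes together with Klrd1, Klre1, Klrg1, Klrg2, Klri1, Klri2 and Klrk1. The rule used symbols and no measured value.

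C57BL/6J mice carried a subcutaneous tumor of MC38, a colorectal carcinoma line, or of Panc02-SIY, a line of pancreatic adenocarcinoma carrying the model antigen SIY. Tumors were left untreated or received 1 dose of 12 Gy of CT-guided radiation, and live CD45+ cells were sorted 24 h later for 10x 3' sequencing. Each of the 4 groups (MC38 untreated, MC38 irradiated, Panc02-SIY untreated and Panc02-SIY irradiated) had 4 libraries. Nothing in the labels ties a library to an animal, and the study's methods give fewer animals than libraries in each group. Some libraries may therefore share an animal, p-values measure the spread between libraries, which may in part be technical, and they may be too small. Both tumors grew from transplanted cell lines in young adult mice of the same strain, and no group carried an engineered allele.

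Killer cell lectin-like receptors are C-type lectin-like proteins of natural killer (NK) cells and some T cells, most of them encoded side by side in the NK gene complex. The Ly49 receptors (Klra genes) bind classical MHC class I, and CD94 (Klrd1) pairs with NKG2A (Klrc1) or NKG2C (Klrc2) to read Qa-1 (H2-T23). Inhibitory members recruit the phosphatases encoded by Ptpn6 and Ptpn11, while activating members such as NKG2D (Klrk1) signal through the adaptors encoded by Hcst and Tyrobp.

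All 26 genes are protein-coding and lie on chromosome 6 of GRCm38. The complex held 24 of them between positions 128609227 and 131247362, a span of 2.64 Mb. Klrg2 (38625693 to 38637242) and Klrg1 (122270596 to 122282882) lie outside it. Of the Klra genes, 10 lie between 129831154 and 130386874, and Klra2 (131219223 to 131247362, ENSMUSG00000030187) lies 0.832 Mb beyond them. Several members are close paralogs, and 11 of them shared at least 1 window of 91 bases, the length of the sequenced read, within the last 500 bases of a transcript with another gene of the chromosome. Klrc1 was the member with over 20% of its windows shared (21.5%), followed by Klra10 (14.9%), Klrb1b (13.8%), Klra9 (11.8%) and Klrb1c (11.3%). Counts of these genes are less certain for it, by an amount that the share of windows does not measure and that was not tested.

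The Klra promoters resemble each other. They are shown because, in the results below, macrophages led for Klra17 and Klra2, and NK or T cells for the other Klra genes. The split is not clean: Klra3 had 38.2% of its UMIs in NK cells and 18.2% in macrophages, and macrophages of MC38 held little Klra17. RefSeq promoter windows, 250 bases before to 50 bases after the start, were given for 23 members (GRCm38.p6, not Klrd1, Klrg1 or Klri2). The 250 upstream bases were searched on both strands for TTTCCTC, a motif of the ETS and PU.1 type, which was present in 12 of 23 members, 9 of them Klra genes, against 2500 of 32851 windows of the same length (7.61%). The Klra genes are on the minus strand. A stretch around the motif follows for 6 of them, 5′ to 3′ with TTTCCTC in capitals, first the pair with the most UMIs in macrophages.
Klra17 (chr6:129876697-129876766): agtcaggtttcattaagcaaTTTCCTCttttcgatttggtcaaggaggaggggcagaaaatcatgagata
Klra2 (chr6:131247384-131247453): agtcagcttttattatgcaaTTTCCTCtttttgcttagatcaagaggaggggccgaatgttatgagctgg
Klra4 (chr6:130067301-130067370): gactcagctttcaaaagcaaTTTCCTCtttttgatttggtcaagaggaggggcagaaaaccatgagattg
Klra8 (chr6:130129929-130129998): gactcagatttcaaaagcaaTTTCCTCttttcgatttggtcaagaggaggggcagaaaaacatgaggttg
Klra7 (chr6:130233362-130233431): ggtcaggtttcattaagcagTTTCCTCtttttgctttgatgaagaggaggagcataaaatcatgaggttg
Klra6 (chr6:130027024-130027093): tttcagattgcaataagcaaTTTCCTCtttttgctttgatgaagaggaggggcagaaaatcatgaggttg

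The motif began 74 bases upstream of the start in Klra17, 71 in Klra2, 79 in Klra4, 80 in Klra8, 89 in Klra7 and 119 in Klra6. It was therefore present both in the pair led by macrophages and in Klra genes found in NK and γδ T cell-like clusters. A second run of letters in these stretches, AGGAGGGGC, was present upstream of 7 members, all of them Klra genes (Klra17, Klra5, Klra6, Klra4, Klra8, Klra9 and Klra2), against 520 windows (1.58%). TGTGGT, the RUNX core, was found in 8 of 23 members against 14.0% of windows, and TCACAC, of the T-box type, in Klrg2 and Klre1 against 12.3%. AGGAGGGGC is part of the stretches shown, so its excess in Klra genes over all windows is a description and no test. The Klra promoters resemble each other, so Klra genes sharing a run of letters are not independent occurrences. These are matches of letters and were not tested for binding.

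The 16 libraries held 28678 barcodes. Libraries of MC38 held 1008 to 1460 barcodes and 3240877 to 10121198 UMIs (unique molecular identifiers, counted molecules), and those of Panc02-SIY 1180 to 4538 barcodes and 5327146 to 43776342 UMIs. Barcodes were clustered without the members, and clusters were named from markers that include none of them. The NK cell-like class held 2324 barcodes (280 in MC38, 2044 in Panc02-SIY), the T cell-like class 7431 (507 and 6924) and the macrophage-like class 7952 (6709 and 1243). Each class carried its markers in every group: the 12 NK cell markers, such as Ncr1, Gzma and Eomes, summed to 12733 to 21113 CPM (UMIs of a gene per 1000000 UMIs of a sum) in the NK cell-like class, and none was at 0 in any group.

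The MC38 libraries were not separate sets of barcodes. Their 9843 barcodes comprised 2632 distinct sequences, 85.8% occurred in another MC38 library and 84.5% in a library of the other treatment group. In the NK cell-like class 280 MC38 barcodes were 70 distinct sequences, in the T cell-like class 507 were 183 and in the macrophage-like class 6709 were 1571. In Panc02-SIY 4.70% of barcodes occurred in another library. Results are therefore given with all barcodes and, where named, with each barcode kept in 1 library, the one of that tumor where it had most UMIs. That left at least 10 NK cell-like barcodes in 2 of the 4 libraries of each MC38 group, and those libraries alone entered the NK cell-like fit. Values of a class are sums over its barcodes in a library, scaled to CPM. MC38 barcodes were also shallower, with class medians of 883 to 1728 UMIs for NK cell-like barcodes against 3743 to 6005 in Panc02-SIY.

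Members were sorted by the class that held most of their UMIs, a share that depends on class size as well as level. By this share, 11 members led in NK cell-like, 10 in T cell-like and 4 in macrophage-like barcodes. Klri1 led in dendritic cell-like barcodes with 43.9% of its 164 UMIs. Klra8 (Ly49H, an activating receptor) had 91.5% of its 6503 UMIs in NK cell-like barcodes, Klrb1a 88.2%, Klrb1c (NK1.1) 85.1%, Klrb1f 83.7% and Klra9 81.0%. The CD94 and NKG2 genes led in the more numerous T cell-like barcodes, with 75.4% of 74139 UMIs for Klrd1, 81.3% of 33405 for Klrc1 and 73.5% of 29093 for Klrc2. Klra2 (72.5% of 21455 UMIs), Klra17 (73.8% of 8503), Klrb1b (43.4% of 10333) and Klrg2 (64.4% of 146) were the members led by macrophage-like barcodes. By level, Klrb1b was higher in NK cell-like barcodes (308 CPM in Panc02-SIY, 127 in MC38) than in macrophage-like ones (155 and 29.7). Klre1 led in T cell-like barcodes by share, yet in Panc02-SIY its level was 755 CPM in NK cell-like and 255 in T cell-like barcodes. Klrb1 and Klra10 had under 100 UMIs in all and are given no levels by class.

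**Figure D1:**
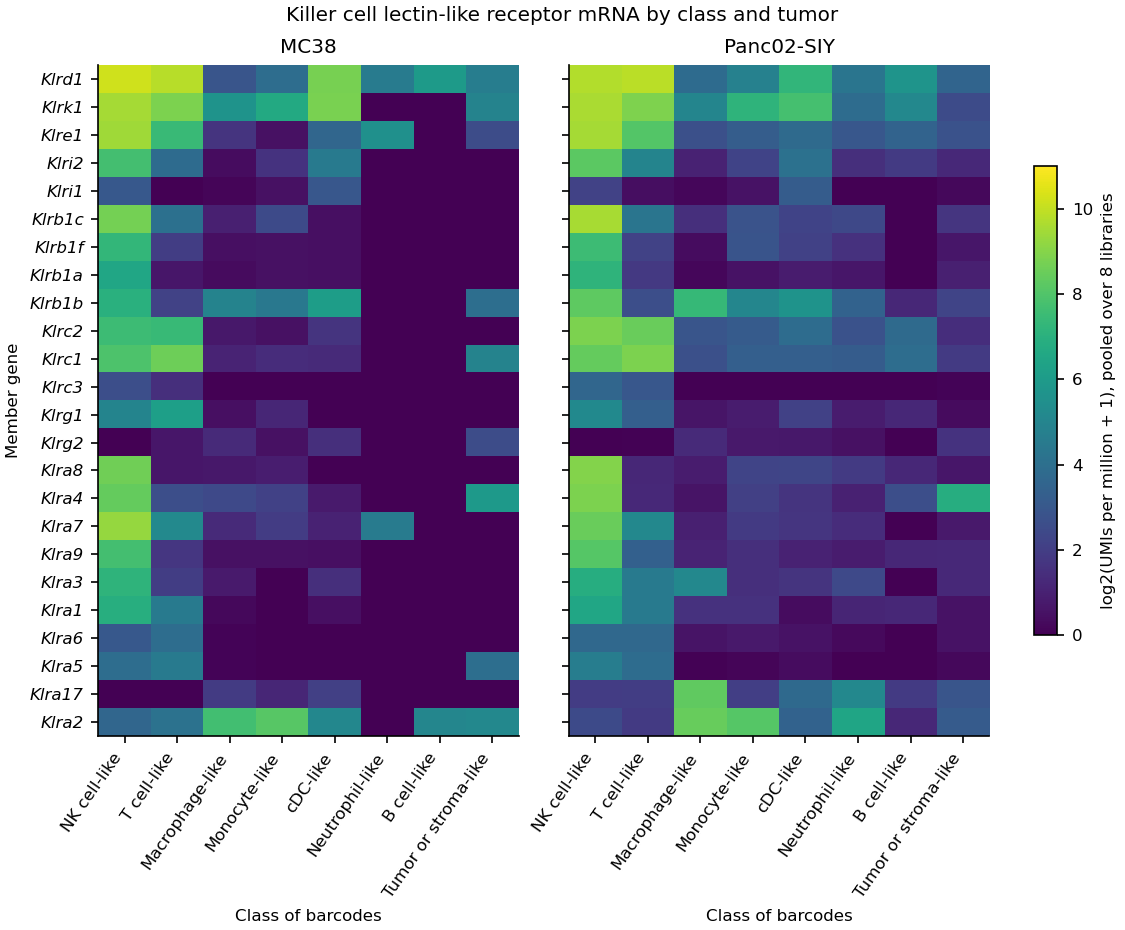
Level of 24 members (rows) in 8 cell classes of each tumor (columns), as log2(CPM + 1) pooled over the 8 libraries of a tumor. NK cell-like and T cell-like columns are high for Klrd1, Klrk1, Klrc1 and Klrc2, while Klra2 is high in macrophage-like and monocyte-like columns of both tumors and Klra17 in the macrophage-like column of Panc02-SIY.

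Levels by class are a description of the clusters. In NK cell-like barcodes of Panc02-SIY, Klrd1 stood at 850 ± 106 CPM (SD, n = 8 libraries), Klrk1 at 777 ± 111, Klre1 at 755 ± 131 and Klra8 at 500 ± 166. In MC38 the same genes stood at 1250 ± 329, 761 ± 123, 754 ± 156 and 385 ± 198. In T cell-like barcodes Klrd1 stood at 874 ± 161 in Panc02-SIY and 915 ± 226 in MC38. Monocyte-like barcodes expressed Klra2 at 285 ± 37.2 in MC38 and 255 ± 38.8 in Panc02-SIY, with Klra17 at 1.40 and 3.27. Dendritic cell-like barcodes carried Klrd1 (420 ± 103 in MC38, 167 ± 87.7 in Panc02-SIY) and Klrk1 (437 ± 58.7 and 227 ± 81.9). The tumor or stroma-like class of Panc02-SIY, which the CD45 sort should remove, carried Klra4, the activating receptor Ly49D, at 92.9 ± 40.4, and 28.5% of its 730 barcodes had a UMI of Klra4.

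Shares of barcodes with a UMI depended on depth. In NK cell-like barcodes, 71.1% of MC38 and 91.1% of Panc02-SIY barcodes had a UMI of Klrd1, and after each barcode was thinned to 1000 UMIs the shares were 67.7% (164 of 280 barcodes deep enough) and 52.6% (2025 of 2044). For Klrc2 the shares were 30.7% and 78.9% before thinning and 14.6% and 34.3% after it. For comparison, 6.52% of the 184 B cell-like barcodes of Panc02-SIY (median 3415.5 UMIs) had a UMI of Klrd1 and 2.17% one of Klrc2, so the shares in NK cell-like barcodes (median 4780.5 UMIs) stood above this background.

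The NK cell-like clusters differed in Klra content. In Panc02-SIY, clusters 3, 4 and 14 were named conventional NK cell-like (1710 barcodes), and cluster 12 (334 barcodes), led by Gzmc, Car2, Cd7 and Ncr1, was left unnamed within the class. Cluster 12 raised 1 conventional NK cell marker and 2 markers of type 1 innate lymphoid cells (ILC1), too few for either name. Whether it holds ILC1 was not tested. Klra8 stood at 642 ± 153 CPM in conventional NK cell-like barcodes against 47.5 ± 39.0 in cluster 12 (n = 8 libraries each). Klra4 stood at 600 ± 81.4 against 44.4 ± 44.7, Klra9 (Ly49I, inhibitory) at 350 ± 68.3 against 38.2 ± 21.2 and Klra7 (Ly49G, inhibitory) at 442 ± 76.3 against 93.9 ± 57.8. Every named Klra gene was thus lower in cluster 12, whereas Klrd1 (846 ± 104 and 852 ± 150) and Klrc2 (463 ± 99.9 and 493 ± 152) lay close together. Klrc1, the inhibitory partner of CD94, was the reverse, at 279 ± 45.1 in conventional NK cell-like barcodes and 534 ± 113 in cluster 12, as was Klrb1b (261 ± 33.7 and 484 ± 143), an inhibitory receptor for the lectin encoded by Clec2d. Among other Klra genes, Klra5 (16.7 ± 8.37 and 35.7 ± 29.1) and Klra2 (4.30 ± 2.05 and 5.90 ± 4.28) were not lower in cluster 12. Klrg1, which binds cadherins and marks mature NK cells, stood at 46.2 ± 8.96 against 2.79 ± 2.07, and within conventional clusters at 92.9 ± 15.6 in cluster 4 against 13.8 ± 7.34 in cluster 3.

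MC38 held few cluster 12 barcodes, and its second NK cell-like cluster was cluster 15, with 80 barcodes, all from MC38. Cluster 15 raised 3 conventional NK cell markers and 2 ILC1 markers and was left unnamed too. There Klra7 (675 ± 395, n = 5 libraries) and Klra1 (187 ± 162) were present while Klra8 stood at 33 ± 48.8, against 574 ± 231 in the conventional NK cell-like barcodes of MC38 (194 barcodes, n = 8). Klrg1 stood at 56.8 ± 13.9 in cluster 15 and 11.6 ± 14.7 in conventional barcodes of that tumor. Cluster 15 therefore differed from cluster 12 in its Klra7 and Klrg1 levels. As cluster 15 held MC38 barcodes only and cluster 12 mostly Panc02-SIY ones, tumor and cluster cannot be told apart in this difference.

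**Figure D2:**
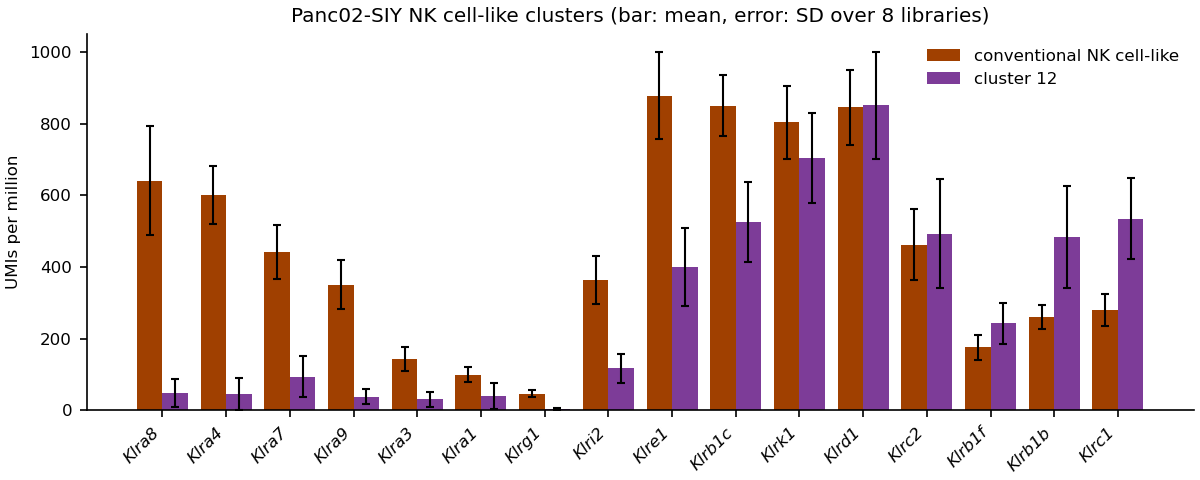
Levels of 16 members in conventional NK cell-like barcodes and in cluster 12 of Panc02-SIY tumors, in CPM, with bars for the mean and error bars for the SD over 8 libraries. Klra8 (642 against 47.5), Klra4, Klra9, Klra7 and Klrg1 are higher in conventional barcodes, and Klrc1 and Klrb1b are higher in cluster 12.

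Single NK cells are known to express Klra genes in varied combinations. At 1000 UMIs per barcode, conventional NK cell-like barcodes showed a mean of 1.44 of 9 Klra genes in Panc02-SIY (1693 barcodes) and 1.5 in MC38 (96 barcodes). None was seen in 21.4% and 12.5% of them, and 2 or more in 44.1% and 45.8%. In cluster 12 the mean was 0.262 with none in 81.9% of 332 barcodes, and in cluster 15 it was 0.726 with none in 48.4% of 62. The 280 NK cell-like barcodes of MC38 were 70 distinct sequences, so its shares, cluster 15 included, may count a sequence more than once. A Klra gene missing from a barcode at this depth may have been expressed and not captured.

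No member passed the test for a radiation effect in NK cell-like barcodes. A call required an edgeR quasi-likelihood adjusted p (Benjamini-Hochberg) under 0.1 and a change of more than 1.3-fold, and 24 members passed the filter on low counts. In MC38, 0 of 24 were called by edgeR and 0 by DESeq2, with 3 and 5 at an unadjusted p below 0.05, beside 0.102% of 9835 genes called. Of the MC38 NK cell-like barcodes, 87.1% also occurred in a library of the other treatment group. The lack of calls in MC38 therefore does not show that radiation had no effect. The count with each barcode kept in 1 library is given in the closing section. In Panc02-SIY, 0 of 24 were called by either tool, with 3 and 2 at an unadjusted p below 0.05, beside 2.23% of genes. The median log2 fold change of the members was 0.21 in Panc02-SIY against -0.01 over all genes, and 0.15 against 0.00 in MC38.

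Klrg1 came nearest in MC38. Untreated MC38 libraries held 57.7, 40.0, 61.3 and 27.2 CPM of Klrg1 in NK cell-like barcodes and irradiated ones 25.8, 9.31, 7.80 and 8.59, from 28 and 6 UMIs. All irradiated libraries lay below all untreated ones. The log2 fold change was -2.02 (SE 0.58) with an edgeR adjusted p of 0.205, which ranged from 0.109 to 0.894 over 30 alternatives. In Panc02-SIY, Klrg1 lay the other way, at 21.4, 23.1, 33 and 30.6 untreated and 44.4, 52.6, 41.6 and 36.8 irradiated. The groups did not overlap, and the log2 fold change was 0.61 (SE 0.20, adjusted p 0.136). The difference between the tumors' radiation effects on Klrg1, tested as an interaction, was -2.63 (SE 0.61) with an edgeR adjusted p of 0.114 over all genes. It passed the threshold in 8 of 29 alternatives, and in this interaction 0 of 24 members were called by edgeR or DESeq2 (3 each at an unadjusted p below 0.05, beside 0.0305% of genes called). The makeup of the Panc02-SIY class moved with treatment: cluster 4, where Klrg1 was high, made up 25.5% of untreated and 46.0% of irradiated NK cell-like barcodes, and cluster 12 made up 23.3% and 12.1%, whose part in the value was not tested. Within conventional NK cell-like barcodes Klrg1 stood at 40.3 untreated and 52.0 irradiated in Panc02-SIY, and at 16.2 and 7.01 in MC38.

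Between tumors, 6 of 24 members were called in untreated and 8 in irradiated NK cell-like barcodes, beside 25.0% and 28.8% of genes, shares close to the members' own. In the untreated comparison 2 were higher and 4 lower in MC38, beside 10.0% and 15% of genes, and in the irradiated comparison 3 were higher and 5 lower, beside 11.8% and 17.0%. The median over all genes was itself shifted by -0.16 and -0.19 on the log2 scale, and that of the members was -0.11 and -0.23. In MC38, conventional barcodes lay mostly in cluster 14 and the others in cluster 15, while in Panc02-SIY clusters 3, 4 and 12 held the class, so tumor, cluster makeup, depth and barcode sharing cannot be told apart in these comparisons.

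Within NK cell-like barcodes, RNA of Klrd1 (CD94) and Klra7 (Ly49G) was higher in irradiated MC38 than in irradiated Panc02-SIY tumors. Klrd1 stood at 1111, 1443, 1886 and 1272 CPM in NK cell-like barcodes of irradiated MC38 libraries and at 730, 965, 736 and 748 in irradiated Panc02-SIY libraries. Every MC38 library was above every Panc02-SIY library, with a log2 difference of 0.98 (SE 0.15, edgeR adjusted p 9.69e-07), called in 30 of 30 alternatives and 1.21 with each barcode kept in 1 library. Within conventional NK cell-like barcodes Klrd1 stood at 1444 ± 450 and 790 ± 102. In untreated libraries Klrd1 ranged from 756 to 1318 in MC38 and from 838 to 980 in Panc02-SIY, and the groups overlapped with no call. Klra7 stood at 905, 568, 592 and 979 in irradiated MC38 and at 507, 448, 381 and 295 in irradiated Panc02-SIY. These groups did not overlap (log2 difference 1.06, SE 0.25, edgeR adjusted p 0.00626), and the value was 1.3 with each barcode kept in 1 library. In untreated libraries Klra7 stood at 305, 534, 598 and 613 in MC38 and at 360, 206, 374 and 302 in Panc02-SIY, with overlap and no call (0.66, SE 0.27, adjusted p 0.103). Within conventional barcodes of irradiated tumors Klra7 stood at 558 ± 79.4 and 472 ± 89.6.

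RNA of Klrb1c (NK1.1), Klrb1b (NKR-P1B) and Klrc2 (NKG2C) was lower in NK cell-like barcodes of MC38. For Klrb1c the untreated MC38 libraries held 278, 480, 490 and 551 CPM and the irradiated ones 569, 512, 382 and 408. The Panc02-SIY libraries held 756, 609, 699 and 636 untreated and 945, 863, 875 and 731 irradiated. Groups did not overlap in either comparison, with log2 differences of -0.63 (SE 0.17, edgeR adjusted p 0.00401) and -0.77 (SE 0.16, adjusted p 0.00026). The untreated call of Klrb1c was lost without MC38 untreated replicate 1, and with each barcode kept in 1 library the differences were -0.68 (adjusted p 0.0483) and -0.77 (adjusted p 0.03).

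Klrb1b stood at 90.5, 37.2, 148 and 107 in irradiated MC38 and 278, 358, 337 and 308 in irradiated Panc02-SIY, all MC38 libraries below (log2 difference -1.53, SE 0.27, edgeR adjusted p 6.12e-05, and -1.04 with each barcode kept in 1 library, adjusted p 0.0351). In untreated libraries the groups overlapped, at 105, 80.1, 184 and 266 against 356, 301, 276 and 249 (log2 difference -0.89, SE 0.25, adjusted p 0.0102), and that call was lost without MC38 untreated replicate 1 and when each barcode was kept in 1 library (-0.61, adjusted p 0.167). Within conventional barcodes of untreated tumors Klrb1b stood at 225 ± 102 in MC38 and 256 ± 31.4 in Panc02-SIY. Klrc2 stood at 142, 214, 164 and 180 in irradiated MC38 and 588, 480, 550 and 358 in irradiated Panc02-SIY. The groups did not overlap (log2 difference -1.33, SE 0.26, edgeR adjusted p 0.000708), and with each barcode kept in 1 library the difference was -1.25 with an adjusted p of 0.134. In untreated libraries it was -1.02 (SE 0.26, adjusted p 0.00748), with overlap between 109 to 327 and 285 to 535, and -1.03 (adjusted p 0.171) with each barcode in 1 library.

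**Figure D3:**
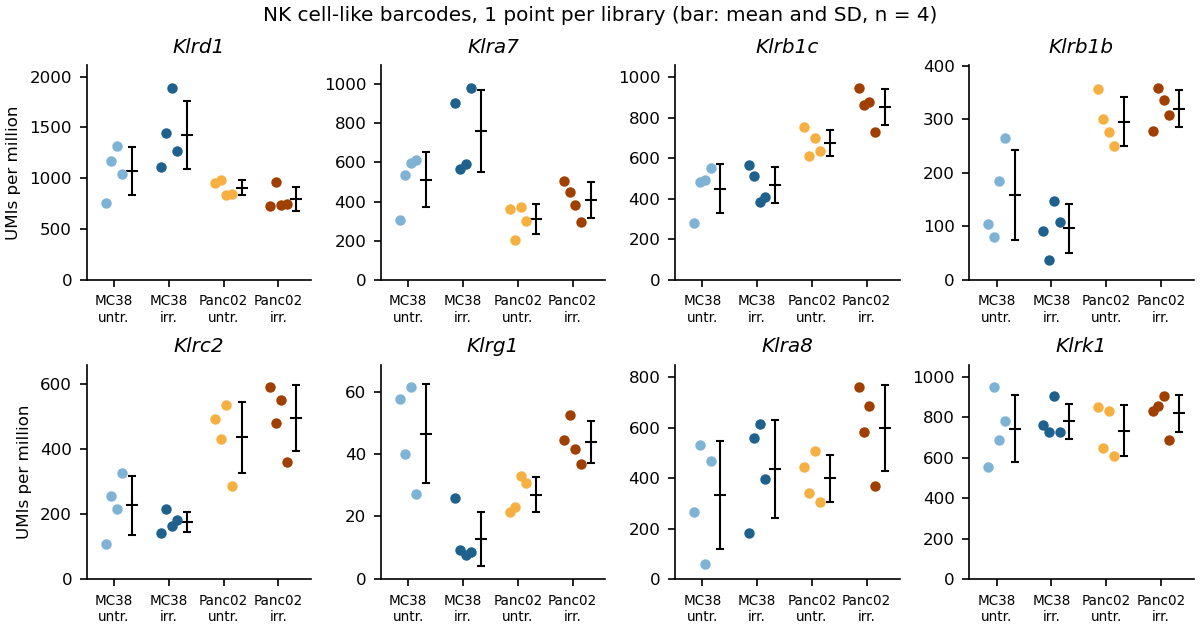
Levels of 8 members in NK cell-like barcodes of each library (points) by group, in CPM, with the group mean and SD. Irradiated MC38 libraries lie above irradiated Panc02-SIY libraries for Klrd1 and Klra7 and below them for Klrb1c, Klrb1b, Klrc2 and Klrg1, while Klra8 and Klrk1 overlap.

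The remaining calls in NK cell-like barcodes rested on few molecules, on overlapping groups or on single libraries. Klrg1 was lower in irradiated MC38 than in irradiated Panc02-SIY libraries, without overlap (log2 difference -1.82, SE 0.50, edgeR adjusted p 0.00488), from 6 and 268 UMIs, and higher in the untreated comparison (0.81, SE 0.34, adjusted p 0.0857) with overlap, 19 of 30 alternatives calling it, and a loss without any 1 of 6 libraries, 3 of them from untreated MC38. Within conventional NK cell-like barcodes the untreated order was the reverse, with Klrg1 lower in MC38 by the values given above. Klri2, which encodes a partner of the receptor made by Klre1, was lower in irradiated MC38 (-0.51, SE 0.20, adjusted p 0.0652, called in 17 of 30 alternatives and lost without any 1 of 8 libraries). Klrc1 was lower in untreated MC38 (-0.51, SE 0.20, adjusted p 0.0593, called in 21 of 30 and lost without any 1 of 5 libraries). Klrb1 was higher in untreated MC38 (2.10, SE 0.78, adjusted p 0.0497), where 1 library held 66.7 CPM and the others 3.39, 0 and 13.6, and the call was lost without that library, MC38 untreated replicate 2. With each barcode kept in 1 library the untreated calls of Klrg1 (adjusted p 0.155), Klrc1 (adjusted p 0.539) and Klrb1 (adjusted p 0.499) were lost.

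Klra2 was called higher in irradiated MC38 NK cell-like barcodes (1.91, SE 0.72, edgeR adjusted p 0.0469), at 12.9, 0, 23.4 and 17.2 CPM against 3.70, 3.94, 3.78 and 4.97. The call was lost with each barcode kept in 1 library (adjusted p 0.154) and without MC38 irradiated replicate 3 or 4. Macrophage markers moved with it: the 12 macrophage markers summed to 678 to 1489 CPM in irradiated MC38 NK cell-like barcodes and 102 to 163 in Panc02-SIY, 9 of 12 were called higher in MC38, and in Panc02-SIY Trem2 was at 0. Their part in the Klra2 value was not tested.

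Klrk1, Klra8 and Klre1 were not called in either tumor comparison. Klrk1 stood at 553 to 947 CPM over the 8 MC38 libraries and at 607 to 903 over the 8 Panc02-SIY libraries, ranges that overlapped. Klra8 ranged from 61.3 to 616 in MC38 and from 307 to 760 in Panc02-SIY, and Klre1 from 488 to 965 and from 557 to 953.

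T cell-like clusters divided the family further. In Panc02-SIY, Klrd1 stood at 1014 ± 119 CPM in CD8 T cell-like barcodes (3263), 562 ± 111 in γδ T cell-like barcodes (994), 125 ± 88.1 in CD4 T cell-like barcodes (555) and 38.3 ± 37.4 in regulatory T cell-like barcodes (392), each over 8 libraries. Klrc1 followed the same order, at 584 ± 109, 197 ± 42.5, 91.8 ± 55.4 and 42.3 ± 25.3, as did Klrk1 at 555 ± 116, 413 ± 62.1, 187 ± 103 and 23.1 ± 17.2. The CD4 and regulatory T cell-like ranges overlapped for Klrd1 and Klrc1.

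Of the inhibitory Ly49 genes, 4 were higher in the γδ cluster than in the other named T cell-like clusters. That cluster was named from 4 raised γδ markers, a share of 0.444 of the γδ markers, so most of them were not raised. Its leading genes were Cd7, Tcf7, Sidt1 and Trdc, followed by Ly6c2 and Nsg2. Ncr1, an NK cell marker, stood at -0.43 relative to the mean on the log2 scale, against -1.09 or below in other T cell-like clusters. On the same scale Cd3e, a T cell gene, stood at 1.40, the lowest of the T cell-like clusters, against -0.945 or below in NK cell-like clusters. The cluster may also hold other cells, and their part in the Ly49 values was not tested. There Klra7 stood at 275 ± 46.8, Klra1 (Ly49A) at 170 ± 58.5, Klra6 (Ly49F) at 97.6 ± 25.7 and Klra9 at 76.4 ± 17.6 CPM. In CD8 T cell-like barcodes the same genes stood at 2.32, 1.58, 0.612 and 1.17, and in regulatory T cell-like barcodes at 1.07, 1.34, 0 and 0. In the γδ cluster 33.8% of barcodes had a UMI of Klra7 against 1.16% of CD8 T cell-like barcodes. The unnamed cluster 11 (179 barcodes of Panc02-SIY, median 604 UMIs in Panc02-SIY) held Klra7 at 67.9 ± 54.5. Klra3 (Ly49C, inhibitory) was less divided, at 38.1 ± 15.3 in the γδ cluster and 20.5 ± 11.2 in CD8 T cell-like barcodes, with overlapping ranges. Klrg1 was instead found in the regulatory cluster, at 233 ± 50.9 with a UMI in 33.4% of barcodes, against at most 9.88 in the others.

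**Figure D4:**
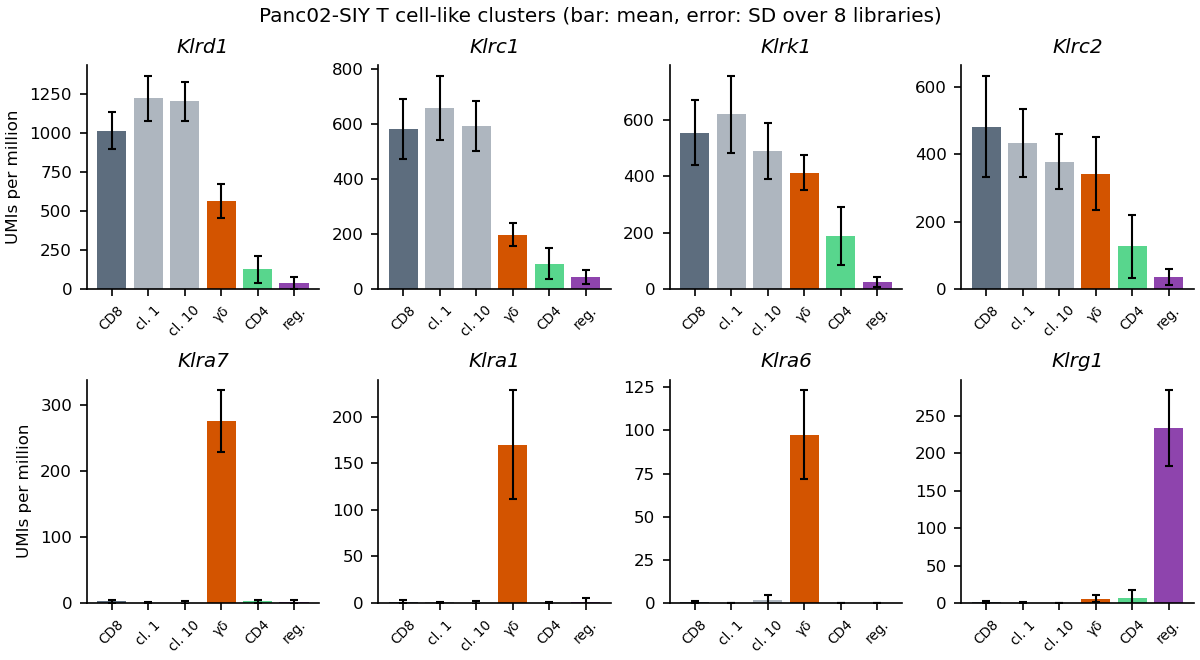
Levels of 8 members in 6 T cell-like clusters of Panc02-SIY tumors, in CPM, with bars for the mean and error bars for the SD over 8 libraries. Klrd1, Klrc1 and Klrk1 are high in CD8 T cell-like clusters, Klra7 and Klra1 in the γδ cluster (275 and 170) and Klrg1 in the regulatory cluster (233).

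Radiation was followed by 1 call among 19 members tested in T cell-like barcodes. In Panc02-SIY 1 of 19 was called, beside 9.9% of 10688 genes, and in MC38 0 of 19 were called by edgeR or DESeq2 (4 and 7 at an unadjusted p below 0.05), beside 0.122% of genes. As 74.6% of MC38 T cell-like barcodes also occurred in the other treatment group, the lack of calls there does not show a lack of effect. The interaction gave 0 of 19 by both tools (3 and 5 at an unadjusted p below 0.05), beside 0.0281% of genes. The call was Klra3, at 14.2, 21.9, 35.4 and 29.4 CPM in untreated and 15.3, 11.5, 16.9 and 8.83 in irradiated libraries. The lowest untreated library lay below 2 irradiated ones, and the log2 fold change was -1.13 (SE 0.27, edgeR adjusted p 0.0137). In the γδ cluster Klra3 ranged from 41.6 to 64.0 untreated and 21.4 to 31.5 irradiated, without overlap, and in CD8 T cell-like barcodes from 5.86 to 33.9 and from 9.77 to 31.0, with overlap. The call was lost with CD8 T cell-like barcodes alone.

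Between tumors, 7 of 19 members were called in untreated and 4 in irradiated T cell-like barcodes, beside 20.3% and 22.4% of genes. T cell-like barcodes of MC38 were 50.2% and 54.1% cluster 11 and 25.3% and 23.7% regulatory, against 2.40% and 2.81% and 4.59% and 6.97% in Panc02-SIY, where CD8 T cell-like barcodes made up 50.04% and 43.6%, so tumor and makeup cannot be told apart. Klrg1, which was high in the regulatory cluster, was higher in MC38. It stood at 58, 78.6, 82.6 and 109 CPM in irradiated MC38 T cell-like barcodes and at 24.2, 12.2, 19.5 and 3.17 in irradiated Panc02-SIY. The groups did not overlap (log2 difference 2.70, SE 0.78, edgeR adjusted p 0.0331, lost without MC38 irradiated replicate 4). Untreated libraries overlapped (2.41, SE 0.87, adjusted p 0.0877, called in 14 of 29 alternatives, and an adjusted p of 0.134 with each barcode kept in 1 library). Within the regulatory cluster Klrg1 stood at 199 ± 112 (4 libraries) and 355 ± 93.8 (2 libraries) in untreated and irradiated MC38 and at 254 ± 60.6 and 213 ± 34.9 in Panc02-SIY.

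Of the NKG2 genes, Klrc2 was lower in MC38 T cell-like barcodes, at 157, 83.3, 95.5 and 162 against 381, 429, 360 and 247 untreated, without overlap (log2 difference -1.61, SE 0.29, edgeR adjusted p 0.00171). In irradiated libraries the difference was -0.98 (SE 0.27, adjusted p 0.0242) with overlap, lost with each barcode kept in 1 library. In untreated MC38, Klra3 was lower (-3.51, SE 0.86, adjusted p 0.00837) from 2 UMIs against 1024, a ratio of 11.2 with a 95% counting interval of 3.09 to 92.5. Klri2 was lower there (-2.69, SE 0.59, adjusted p 0.00245) from 4 and 1064 UMIs, and so were Klre1 (-0.94, SE 0.26, adjusted p 0.0214) and Klrc1 (-0.55, SE 0.20, adjusted p 0.0699, called in 13 of 29 alternatives). With each barcode kept in 1 library the calls of Klre1 (-1.26, adjusted p 0.108) and Klrc1 (-0.46, adjusted p 0.303) were lost. Pooled over both MC38 groups, Klrc1 stood at 865 CPM in 36 CD8, 286 in 40 γδ and 147 in 21 CD4 T cell-like barcodes. These lie above the Panc02-SIY levels given earlier for the same clusters. In the regulatory cluster of MC38 it was lower, at 31.8 ± 31.7 (n = 6 libraries). The part of cluster makeup in the calls of Klrc1 and Klrc2 was not tested. Klra4 was higher in irradiated MC38 (2.79, SE 0.74, adjusted p 0.00997), lost with each barcode kept in 1 library.

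Klra2 was higher in MC38 T cell-like barcodes in both comparisons, at 18.5, 10.4, 4.78 and 4.90 untreated and 25.8, 11.2, 43.1 and 8.58 irradiated, against at most 3.33 in any Panc02-SIY library. The log2 differences were 1.77 (SE 0.69, edgeR adjusted p 0.0817, called in 21 of 28 alternatives and lost without replicate 1 or 2 of either untreated group) and 3.15 (SE 0.54, adjusted p 0.000147). With each barcode kept in 1 library they were 1.16 (adjusted p 0.5) and 2.94 (adjusted p 0.00701). Macrophage markers summed to 877 to 1786 CPM in MC38 and 97.2 to 181 in Panc02-SIY T cell-like barcodes, 9 and 11 of 12 were called higher in MC38, and no marker was at 0 in any group. Their part in the Klra2 values was not tested.

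In macrophages, radiation was followed by higher Klra2 in both tumors. Klra2 encodes Ly49B, an inhibitory receptor known from myeloid cells. Macrophage-like barcodes of untreated MC38 libraries held 155, 183, 152 and 196 CPM of Klra2 and those of irradiated libraries 217, 242, 236 and 239. In Panc02-SIY they held 348, 297, 292 and 293 untreated and 363, 401, 435 and 424 irradiated. In each tumor all irradiated libraries were above all untreated ones. The log2 fold change was 0.53 in MC38 (SE 0.11, edgeR adjusted p 0.00341), a 1.45-fold rise, and 0.48 in Panc02-SIY (SE 0.12, adjusted p 0.0217), a 1.39-fold rise, beside 5.58% and 6.87% of 12465 genes called. The difference between the effects was 0.06 (SE 0.16, adjusted p 1.00). With each barcode kept in 1 library the log2 fold changes were 0.75 (edgeR adjusted p 0.000228) and 0.50 (adjusted p 0.0454). Of the MC38 macrophage-like barcodes, 90.1% also occurred in the other treatment group. The MC38 groups were therefore not separate sets of barcodes, which limits the p-value of the Klra2 call there too.

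Panc02-SIY untreated replicate 1, the highest untreated library for Klra2, had 16 macrophage-like barcodes. The call in Panc02-SIY was lost when its groups were fitted alone and at a clustering resolution of 2, and both tumors' calls at a fold cutoff of 0.58 on the log2 scale. Klra2 also differed between clusters and within some of them. In MC38 it ranged from 187 to 225 untreated and 273 to 310 irradiated in cluster 7 (led by Arg1, Cfb and Fcgr2b), and from 58.5 to 139 and 149 to 201 in cluster 16, without overlap. In cluster 1 it stood at 225 ± 12.7 and 211 ± 25.3, and in cluster 3 at 130 ± 30.5 and 143 ± 9.90, with overlap in both. In cluster 8 of Panc02-SIY (led by Cd300e, Cadm1 and Gbp2b) it ranged from 293 to 306 untreated and 421 to 450 irradiated in the 3 libraries of each group with enough barcodes.

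The family's second call after radiation in Panc02-SIY macrophages was Klra4 (3.11, SE 1.01, edgeR adjusted p 0.0787). It rested on 9 UMIs against 1, a ratio of 11.7 with a 95% counting interval of 1.62 to 512, and was called in 19 of 28 alternatives, not without Panc02-SIY irradiated replicate 3 or 4 or untreated replicate 2 or 4, nor with each barcode kept in 1 library (adjusted p 0.14). No other member of the 17 tested was called in either tumor. In MC38, 90.1% of macrophage-like barcodes also occurred in the other treatment group, so members not called there may still have differed. The interaction gave 0 of 17 by edgeR and by DESeq2 (3 and 2 at an unadjusted p below 0.05), beside 0.0722% of genes.

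Macrophages of MC38 held little Klra17. This gene (ENSMUSG00000014543, chromosome 6, 129831154 to 129876672, minus strand) encodes the inhibitory receptor Ly49Q, known from plasmacytoid dendritic and other myeloid cells. It stood at 1.46, 3.32, 4.52 and 3.75 CPM in untreated and 2.40, 2.74, 0.406 and 2.29 in irradiated MC38 macrophage-like barcodes. In Panc02-SIY it stood at 102, 274, 322 and 286 untreated and 311, 283, 307 and 369 irradiated. Every Panc02-SIY library was above every MC38 library. The log2 differences of MC38 minus Panc02-SIY were -6.21 (SE 0.26, edgeR adjusted p 5.51e-13) and -7.13 (SE 0.29, adjusted p 3.77e-13), beside 50.7% and 53.4% of genes called, and each was called in 29 of 29 alternatives. With each barcode kept in 1 library they were -6.14 and -7.34.

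Cluster 8, which held 91.9% of untreated and 78.1% of irradiated Panc02-SIY macrophage-like barcodes and none of MC38, carried Klra17 at 317 ± 36.6 (n = 6 libraries), against 8.65 ± 19.3 (n = 5) in the Panc02-SIY barcodes of cluster 16. The 2 tumors thus had different macrophage-like clusters, and tumor and cluster cannot be told apart. At 1000 UMIs a barcode, 302 of 1145 Panc02-SIY macrophage-like barcodes had a UMI of Klra17 (26.4%) and 358 one of Klra2 (31.3%), and 36.4% of those with Klra17 had Klra2 against 29.4% of those without. In neutrophil-like barcodes of Panc02-SIY, thinned in the same way, the shares were 2.8% for Klra17 and 6.3% for Klra2.

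**Figure D5:**
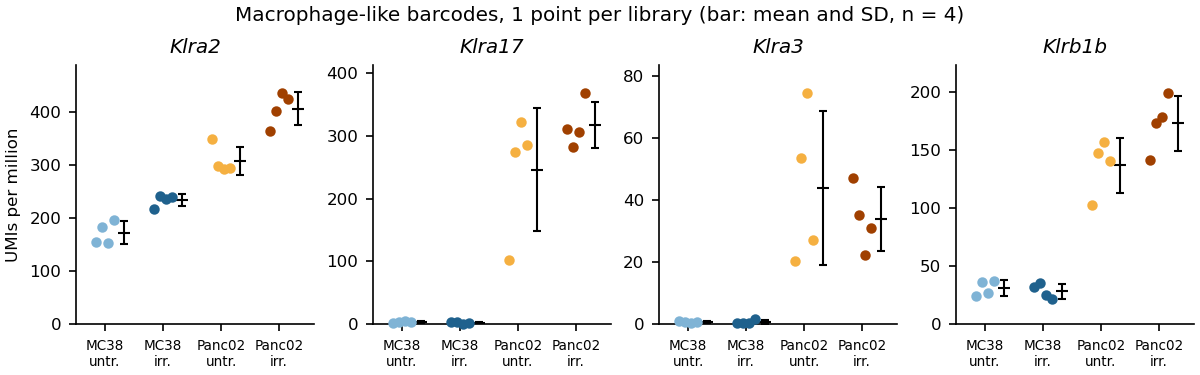
Levels of 4 members in macrophage-like barcodes of each library (points) by group, in CPM, with the group mean and SD. Klra2 is higher in irradiated than untreated libraries of each tumor, and Klra17, Klra3 and Klrb1b are higher in Panc02-SIY.

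Klrb1b and Klra3 were lower in MC38, as Klra17 was. Klrb1b stood at 21.2 to 37.1 CPM over the 8 MC38 libraries and at 102 to 199 over the 8 Panc02-SIY libraries, with log2 differences of -2.07 (SE 0.16, edgeR adjusted p 4.49e-11) untreated and -2.47 (SE 0.16, adjusted p 1.91e-12) irradiated. Klra3 stood at 0.274 to 1.57 in MC38 and 20.4 to 74.4 in Panc02-SIY, with differences of -6.05 (SE 0.41, adjusted p 2.38e-10) and -4.88 (SE 0.42, adjusted p 1.00e-08). Neither gene overlapped between the tumors. With each barcode kept in 1 library the differences of Klra3 were -6.28 and -4.98. Klra2 itself was lower in MC38 by both comparisons (-0.63, SE 0.12, adjusted p 6.03e-05, and -0.57, SE 0.11, adjusted p 0.000115), without overlap. Klra4 went the other way, with 90 UMIs in untreated MC38 against 1 in untreated Panc02-SIY (a ratio of 42.2, 95% counting interval 7.38 to 1685), and a log2 difference of 2.46 (SE 0.46, edgeR adjusted p 5.72e-05) in irradiated tumors. In Panc02-SIY, cluster 8, which held no MC38 barcodes, carried Klra2 at 366 ± 75.1 and Klrb1b at 170 ± 23.5 (n = 6 libraries). In cluster 16, found in both tumors, Panc02-SIY libraries held 42.7 to 238 CPM of Klra2 (n = 5). That range spans the MC38 ranges given above for this cluster. Klrb1b stood at 39.5 ± 65.8 in those libraries. The part of cluster makeup in the differences of Klra2 and Klrb1b was not tested.

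In all, 11 of 17 members were called in untreated macrophage-like barcodes (1 higher and 10 lower in MC38, beside 25.3% and 25.4% of genes) and 12 in irradiated ones (3 higher and 9 lower, beside 28.0% and 25.4%). The members' median log2 difference was -1.43 and -0.95 against 0.01 and 0.02 over all genes tested. Lymphoid members among the lower calls had low levels: Klrc2 was at most 2.40 CPM in any MC38 library and at most 20.5 in Panc02-SIY, with differences of -4.02 (SE 0.79) and -2.50 (SE 0.69). Klrc1, Klrd1, Klre1 and Klri2 were lower in untreated MC38 by -2.93, -1.43, -1.44 and -2.25, with overlapping groups. Lymphoid markers moved with them: the NK cell markers summed to 20.3 to 76.2 CPM in MC38 and 80.2 to 225 in Panc02-SIY macrophage-like barcodes (6 of 12 called lower untreated, 5 irradiated), and the T cell markers to 30.6 to 59.6 and 54.6 to 210 (10 of 10 and 4 of 10 called lower). No marker was at 0 in any group, and their part in these values was not tested.

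The other calls in irradiated macrophage-like barcodes were Klra1 (-4.05, SE 0.83), from 3 UMIs against 27 (a ratio of 20.4, 95% counting interval 6.26 to 105), Klra9 (-1.83, SE 0.63), Klrb1c (-1.12, SE 0.47), Klre1 (-0.92, SE 0.37), Klrk1 (0.88, SE 0.29) and Klrg2 (1.34, SE 0.66). All but Klra9 had overlapping groups. The calls of Klrk1, Klra9 and Klrb1c were lost without Panc02-SIY irradiated replicate 4, those of Klrb1c and Klre1 without MC38 irradiated replicate 4, and that of Klrb1c without MC38 irradiated replicate 2, and Klrg2 was called in 10 of 27 alternatives, from 25 and 5 UMIs, and not with each barcode kept in 1 library (adjusted p 0.152). Klra1 in untreated tumors (-1.77, SE 0.89, edgeR adjusted p 0.0988) was called in 9 of 25 alternatives, from 5 and 11 UMIs. All 11 were in Panc02-SIY untreated replicate 4 (1.36 CPM, the others at 0), the group means were 0.296 and 0.340 CPM, and without that library the log2 difference was 2.87.

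Summed over all CD45+ barcodes, most of the family was lower in MC38, which held fewer lymphocytes. In such sums, fewer cells of a type and less RNA per cell cannot be told apart. NK cell-like barcodes made up 2.52 to 3.11% of MC38 and 5.53 to 16.7% of Panc02-SIY libraries, T cell-like barcodes 4.51 to 5.95% and 24.4 to 43.8%, and macrophage-like barcodes 66.4 to 70.1% and 1.36 to 11.1%. Of 26 members, 23 were called between untreated and 24 between irradiated tumors, beside 60.3% and 59.7% of genes, and 21 and 22 of them were lower in MC38, against 32.8% and 30.9% of genes called lower. The pair that was higher in MC38 was Klra2 and Klrg2 in both comparisons. For Klra2, MC38 libraries held 138 to 219 CPM and Panc02-SIY libraries 21.2 to 144, so its order over all CD45+ barcodes was opposite to that within macrophage-like barcodes.

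Over all CD45+ barcodes, 3 members were called after radiation in Panc02-SIY, beside 14.3% of genes: Klrd1 (-0.63, SE 0.17, edgeR adjusted p 0.0163), Klrb1b (0.47, SE 0.14, adjusted p 0.0316) and Klra2 (0.84, SE 0.30, adjusted p 0.0737). The call of Klrb1b was lost without Panc02-SIY untreated replicate 2, and that of Klra2 without untreated replicate 2 or 3 or irradiated replicate 3 or 4. In MC38 0 of 26 were called by edgeR and 1 by DESeq2 (4 and 7 at an unadjusted p below 0.05), beside 2.92% of genes. There 84.5% of barcodes also occurred in the other treatment group, so few calls do not show a lack of effect. Klrd1 stood at 697, 659, 682 and 487 CPM in untreated and 347, 558, 392 and 415 in irradiated Panc02-SIY. In MC38 it stood at 104, 89.9, 68.4 and 64.7 untreated and 122, 87.9, 98.5 and 105 irradiated. The Panc02-SIY fall and the MC38 difference (0.43, SE 0.17, adjusted p 0.246) gave an interaction of 1.06 (SE 0.24, edgeR adjusted p 0.0631), 1 of 26 members beside 1.55% of genes. It was called in 14 of 25 alternatives, was lost without any 1 of 9 libraries, and with each barcode kept in 1 library the adjusted p was 0.113. Within NK cell-like and T cell-like barcodes the interaction of Klrd1 was not called.

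The signaling partners and ligands of the receptors were followed in lists of 15 adaptor and signaling genes and 14 ligand genes. In NK cell-like barcodes 0 of 15 adaptor genes were called after radiation in either tumor by edgeR, beside 0.102% of genes in MC38 and 2.23% in Panc02-SIY. Between tumors, Hcst, the adaptor of NKG2D, was lower in MC38 (-0.99, SE 0.16, adjusted p 5.15e-06 untreated and -0.70, SE 0.16, adjusted p 0.000703 irradiated) and Ptpn6, which encodes the phosphatase SHP-1, was higher (1.29, SE 0.18, and 1.10, SE 0.20). Macrophage markers, given above beside Klra2, were also higher there (8 of 12 called untreated and 9 of 12 irradiated), and Ptpn6 is also expressed in myeloid cells. Their part in the Ptpn6 values was not tested. In all, 2 of 15 were higher and 4 lower untreated, beside 10.0% and 15% of genes, and 3 were higher and 7 lower irradiated, beside 11.8% and 17.0%. In T cell-like barcodes 2 were higher and 2 lower in each comparison, beside 20.3% and 22.4% of genes. In macrophage-like barcodes 0 were higher and 11 lower untreated, and 0 and 6 irradiated, beside 25.4% of genes lower in each. After radiation Sh2d1b1 fell in MC38 macrophage-like, Vav1 rose in Panc02-SIY macrophage-like and Fcer1g fell in Panc02-SIY T cell-like barcodes, beside 5.58%, 6.87% and 9.9%. Over all CD45+ barcodes Plcg2, Syk and Tyrobp rose in Panc02-SIY, beside 14.3%.

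Of the ligand genes, 7 were tested in NK cell-like, 7 in T cell-like and 10 in macrophage-like barcodes. After radiation in Panc02-SIY, 1 was called in each class, beside 2.23%, 9.9% and 6.87% of genes. In MC38 macrophage-like barcodes 1 was called, beside 5.58% of genes. Clec2d, whose product binds the receptor encoded by Klrb1b, rose after radiation in Panc02-SIY NK cell-like barcodes (0.57, SE 0.17, edgeR adjusted p 0.0847) and in macrophage-like barcodes of MC38 (0.47, SE 0.12, adjusted p 0.0196) and Panc02-SIY (0.39, SE 0.13, adjusted p 0.0944). Ulbp1, which encodes the NKG2D ligand MULT-1, rose in Panc02-SIY T cell-like barcodes (0.86, SE 0.17, adjusted p 0.00297). Between tumors, 1 untreated and 5 irradiated were higher in MC38 NK cell-like barcodes, beside 25.0% and 28.8% of genes called. In T cell-like barcodes 3 were higher untreated, and 3 higher and 2 lower irradiated, beside 20.3% and 22.4%. In macrophage-like barcodes 3 were higher and 2 lower in each comparison, beside 50.7% and 53.4%. H2-D1, a classical MHC class I gene, was higher in MC38 in all 3 classes, by 0.72 and 1.15 in NK cell-like, 0.99 and 1.11 in T cell-like and 0.71 and 0.79 in macrophage-like barcodes (untreated and irradiated). Ulbp1 was mixed: in irradiated tumors it was higher in MC38 NK cell-like barcodes and lower in T cell-like and macrophage-like ones. In macrophage-like barcodes Clec2d was lower in MC38 (-1.35, SE 0.13, and -1.27, SE 0.12), as Klrb1b was there.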

How the data were processed

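Live CD45+ tumor cells were profiled in 16 libraries by 10x 3' sequencing (chemistry 3.0). The authors deposited filtered matrices of raw UMI counts per gene and barcode, made with bcl2fastq 2.20.0 and Cell Ranger 3.1.0 against mm10 per the submitters' processing notes. The aggregated matrix of all samples was not used here. Such counts come from the 3' end of transcripts, so levels were compared within a gene and not between genes.

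All 28678 deposited barcodes were kept. They were clustered with scanpy 1.11.5 (2000 variable genes without the members, 30 principal components, 20 neighbors, Leiden resolution 1, leidenalg 0.10.2). A name needed at least 3 class markers above the other clusters by more than 1 on the log2 scale (pseudocount 20 CPM). Doublets were retained, because the automatic Scrublet threshold marked 31 barcodes (0.108%), and removing the 5% with the highest scores (1170 barcodes) was an alternative. Cluster 13 (330 barcodes, median 19.1% mitochondrial UMIs) was left unnamed.

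Counts were summed per library and class where a library had at least 10 barcodes, and fitted with edgeR 4.0.16 (quasi-likelihood, TMM scaling, limma 3.58.1, R 4.3.3) over all 4 groups together, after a filter at a minimum count of 3 and a minimum total of 15. Adjusted p is Benjamini-Hochberg over all genes tested, two-sided, called below 0.1 with a fold above 1.3. DESeq2 1.42.0 was an alternative. The script was tested on simulated data. Counting intervals (95%) cover counting error only. Named members were up to 12 called per population, the largest changes first. Values within clusters by group, and adding cluster 13 to the NK cell-like barcodes, were chosen after seeing the data. The members and gene lists were chosen with earlier results of these data known. Samples were grouped by their labels. Same-numbered libraries did not all deviate together, so replicate numbers were used as names only.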

Additional observations from a re-analysis of the deposited data

Results flagged for a closer look

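In 18 of 227 groups of 4 libraries, 1 library stood far from the other 3 by Dixon's criterion, where chance gives 1 in 20, or 11.3. In NK cell-like barcodes, Panc02-SIY irradiated replicate 2 held 965 CPM of Klrd1 against 730 to 748 in the others, and MC38 irradiated replicate 1 held 25.8 of Klrg1 against 7.80 to 9.31. In T cell-like barcodes, MC38 irradiated replicate 3 held 10.8 of Klra3, which the others lacked, and Panc02-SIY untreated replicate 4 held 374 of Klrc1 against 491 to 504.

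In macrophage-like barcodes, Panc02-SIY untreated replicate 1, with 16 barcodes, stood apart for Klra2 (348), Klrk1 (184) and Klre1 (0.0). Other values there were Klra1 at 1.36 in Panc02-SIY untreated replicate 4, Klra3 at 1.57 in MC38 irradiated replicate 4, Klra4 at 0.942 in Panc02-SIY untreated replicate 3, Klra9 at 0.835 in MC38 untreated replicate 1 and at 9.43 in Panc02-SIY irradiated replicate 1, and Klrc2 at 20.5 in Panc02-SIY irradiated replicate 3. Over all CD45+ barcodes they were Klra10 at 0.757 in Panc02-SIY untreated replicate 3, Klra6 at 10.2 in Panc02-SIY irradiated replicate 3, Klrc2 at 131 in Panc02-SIY untreated replicate 4, Klrc3 at 2.24 in Panc02-SIY irradiated replicate 4 and Klrk1 at 147 in MC38 irradiated replicate 1.

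The radiation effect on Klrd1 over all CD45+ barcodes differed between the tumors by 1.06 on the log2 scale in the edgeR interaction term, with the values given above.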

How the results depend on the processing

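Over alternatives, 242 of 287 counts of called members stayed within 1.5 times the reported count, and of 3024 fold changes of called members 2795 kept their direction and their side of the threshold, 227 kept the direction only and 2 reversed. Levels by class moved by less than 1 SD when each barcode was kept in 1 library (156 of 156). Shares of NK cell-like barcodes with a UMI were less stable: of 52 shares, 13 stayed the same under their alternative and 39 moved. Klrb1c in irradiated macrophage-like barcodes (MC38 minus Panc02-SIY) reversed to 0.75 with 10 principal components, and Klra1 in untreated ones to 2.87 without Panc02-SIY untreated replicate 4, in a range of -2.61 to 2.87 over single libraries left out. The cause was not tested.

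Counts that moved follow, with the reported count in brackets. Here and below, the share of all genes called under the same setting is not given. A setting that calls more genes may call more members, so these counts show dependence on the processing and are no result about the members. In NK cell-like barcodes, radiation in MC38 (0) gave 1 with cluster 13 included, 1 without the low-count filter, 1 with each barcode in 1 library and 2 when libraries were thinned to 2520.1 UMIs per barcode. Radiation in Panc02-SIY (0) gave 1 with 10 principal components, 1 with 2 groups only and 1 with doublets removed. The interaction (0) gave 1 with RLE scaling, 1 without the filter and 1 thinned, and the untreated comparison (6) gave 1 with each barcode in 1 library. In T cell-like barcodes, radiation in MC38 (0) gave 1 without the filter, and in Panc02-SIY (1) gave 0 with CD8 T cell-like barcodes only and 2 without the filter. The irradiated comparison (4) gave 7 without the filter and 2 thinned, and the untreated one (7) gave 4 at an adjusted p of 0.05, 3 with each barcode in 1 library and 4 thinned.

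In macrophage-like barcodes, radiation in MC38 (1) gave 3 with 2 groups only, 0 at a log2 cutoff of 0.58 and 2 with each barcode in 1 library. In Panc02-SIY (2) it gave 0 with 2 groups only and 1 each with DESeq2, an adjusted p of 0.05, the cutoff of 0.58, no filter, resolution 2, each barcode in 1 library and thinning. The irradiated comparison (12) gave 7 with 10 principal components and 7 thinned. Over all CD45+ barcodes, radiation in MC38 (0) gave 4 with 2 groups only, 1 with DESeq2 and 3 with each barcode in 1 library, and the interaction (1) gave 0 at an adjusted p of 0.05, without the filter and with each barcode in 1 library.

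Leaving out each library in turn gave, in NK cell-like barcodes, 0 to 0 (MC38 radiation), 0 to 3 (Panc02-SIY radiation), 3 to 9 (untreated), 7 to 10 (irradiated) and 0 to 1 (interaction). It gave 0 to 0, 1 to 2, 4 to 8, 4 to 6 and 0 to 0 in T cell-like barcodes, 1 to 3, 1 to 3, 10 to 11, 9 to 13 and 0 to 0 in macrophage-like barcodes, and 0 to 0, 1 to 6, 20 to 23, 22 to 24 and 0 to 1 over all CD45+ barcodes.

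The labels give no meaning to shared replicate numbers, and same-numbered libraries correlated between -0.172 and 0.805 in their deviations from group means. With the replicate number as a block, counts in the same order were 0, 1, 8, 8 and 2 in NK cell-like, 0, 3, 7, 5 and 0 in T cell-like, 2, 2, 11, 13 and 0 in macrophage-like and 1, 5, 23, 24 and 2 over all CD45+ barcodes. Between the Panc02-SIY groups of NK cell-like barcodes every library correlated best with its own number (4 of 4 pairs, 0.0694 to 0.288), a hint from the data only. Depth limits MC38 most, where an NK cell-like class had 30 to 39 barcodes a library.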
